A study of Schizosaccharomyces pombe with 29 samples.

Results

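The peroxide defence genes of fission yeast (Schizosaccharomyces pombe) described here are 9 genes: srx1 (SPBC106.02c), tpx1 (SPCC576.03c), trr1 (SPBC3F6.03), trx2 (SPBC12D12.07c), ctt1 (SPCC757.07c), gpx1 (SPBC32F12.03c), sod1 (SPAC821.10c), pap1 (SPAC1783.07c) and prr1 (SPAC8C9.14). They were taken by name from a table of 7016 genes, as known genes of this pathway, with earlier results of these data known, and the 9 were found and passed the filter on low values. The study mapped RNA-DNA hybrids (R-loops) in fission yeast and also measured RNA by RNA-seq in 8 libraries of 3 strains. The rnh1∆rnh201∆ strain (2 libraries) lacks both rnh1, which encodes RNase H1, and rnh201, which encodes the catalytic subunit of RNase H2. The pRnhA strain (3 libraries) overexpresses the RNase H gene rnhA of Escherichia coli. Wild-type cells (WT, 3 libraries) served as the control for both. RNase H degrades the RNA strand of RNA-DNA hybrids, so it was removed in one strain and added in the other. The cultures of the 3 strains, in PMG, a minimal medium, were kept at 34 °C for 3 hours before they were collected, so every value below is from cells at that temperature and none is from cells given peroxide. The labels give neither the promoter that drives rnhA nor whether replicates were separate cultures. The p-values therefore measure only the spread between these libraries. Libraries of a strain that share a mating type, given below, may be technical repeats, while those that differ in it came from different cells.

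Fission yeast removes hydrogen peroxide with a peroxiredoxin (Tpx1), a catalase (Ctt1) and a glutathione peroxidase (Gpx1), while the superoxide dismutase Sod1 makes peroxide out of superoxide. Tpx1 is reduced by thioredoxin, which thioredoxin reductase (Trr1) keeps reduced, and when Tpx1 is overoxidised by high peroxide the sulfiredoxin Srx1 returns it to activity. Oxidation of the transcription factor Pap1, which acts with the response regulator Prr1, and the stress kinase Sty1, which acts through the transcription factor Atf1, switch on many of these genes when peroxide rises.

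The deposited values are normalized counts rounded to at most 2 significant digits, so a value of 10 or more can be off by up to 5% and a smaller one by a larger share, and each library's values added up to between 8392168 and 9455805. How many reads lie behind them is unknown. The normalized counts of the deleted genes were far lower in rnh1∆rnh201∆: rnh1 had 36 and 23 there, 300, 300 and 320 in pRnhA and 320, 300 and 290 in WT, and rnh201 had 7 and 12 there, 410, 460 and 440 in pRnhA and 390, 360 and 300 in WT. The libraries did not share one mating type: mat1-Mc, the M-cell transcript, was the higher of the mating-type pair in 5 libraries, with 710 to 820 normalized counts, and mat2-Pc, the P-cell transcript, in the other 3, rnh1∆rnh201∆ replicate 1, pRnhA replicate 3 and WT replicate 3, with 460 to 640. The 7 M-cell markers summed to 1652 to 1814 in the mat2-Pc libraries and to 5087 to 7204 in the mat1-Mc libraries, and the 4 P-cell markers in the table to 1330 to 1650 in the mat2-Pc libraries and to 578 to 639 in the mat1-Mc libraries. Of these markers 5 of 7 and 2 of 4 did not overlap between the sets of libraries. The sums and counts include mat1-Mc and mat2-Pc, which defined the sets. Of the markers that did not define them, mfm1, mfm2, mam1, mam2 and map3 did not overlap, while mfm3, mam3, map2 and map4 did. The labels do not mention this difference, so results that rest on it are given with and without those libraries.

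In rnh1∆rnh201∆ cells 1 of the 9 genes fell against WT, srx1, to 54.6% of its WT mean. In pRnhA cells 3 of the 9 fell against WT, srx1 to 74.5%, gpx1 and pap1, and none rose. A gene is said to have risen or fallen where limma's adjusted p, over 6456 genes tested, was under 0.05. Of all genes, 0.294% passed in rnh1∆rnh201∆, with 0.217% lower, and 20.2% passed in pRnhA, with 11.4% lower and 8.88% higher. The 3 of 9 in pRnhA therefore stand beside a background in which about 1 gene in 5 was called, and the 1 of 9 in rnh1∆rnh201∆ beside one with 19 genes in all. Between the strains, rnh1∆rnh201∆ against pRnhA, 0 of the 9 passed limma's test, with 2 at an unadjusted p under 0.05, against 0.356% of all genes past the adjusted threshold. The share of all genes at an unadjusted p under 0.05 was not counted, so such counts, here and below, show no excess. The median log2 fold change of the 9 genes was 0.00 against WT in rnh1∆rnh201∆ and in pRnhA, next to 0.01 and 0.00 over all genes. The authors' deposited table gave adjusted p-values under 0.05 to 2 of the 9 in rnh1∆rnh201∆ (srx1 and gpx1; 15.4% of all genes with an adjusted p there) and to 4 of the 9 in pRnhA (srx1, tpx1, gpx1 and pap1; 32.4% of all such genes). The count over all genes in rnh1∆rnh201∆ rested on single libraries, since it was 3 without pRnhA replicate 1 and 1264 without WT replicate 1. In pRnhA it was 1306 with the 8 libraries, 212 without pRnhA replicate 2 and 2172 without WT replicate 1. The comparisons with WT share the WT libraries, so values in both strains are not independent of each other. In bulk RNA, fewer cells of a type and less RNA per cell cannot be told apart.

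**Figure D1:**
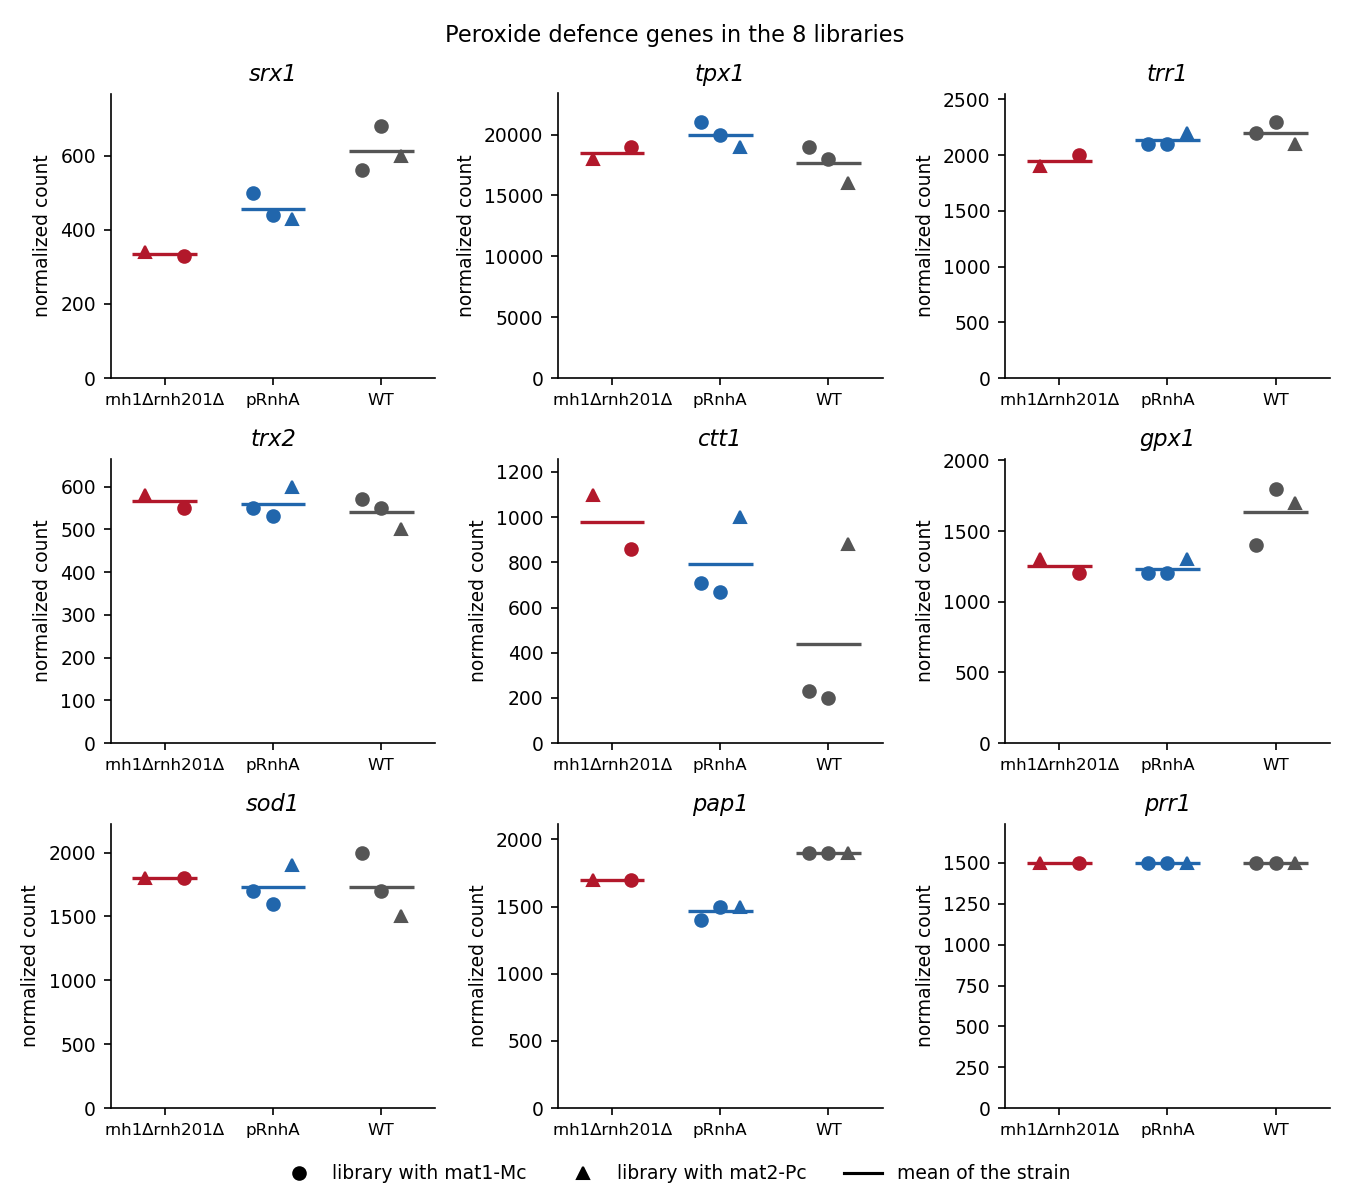
Normalized counts of the 9 genes in each of the 8 libraries, with rnh1∆rnh201∆, pRnhA and WT from left to right on each horizontal axis and the normalized count from 0 on each vertical axis. Circles are libraries with mat1-Mc, triangles libraries with mat2-Pc, and lines strain means. The srx1 values of the 3 strains form separate steps, and ctt1 has WT libraries at 230 and 200 beside one at 880.

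The gene for sulfiredoxin, srx1, had 340 and 330 normalized counts in the rnh1∆rnh201∆ libraries, 500, 440 and 430 in pRnhA, and 560, 680 and 600 in WT. The libraries fell into steps by strain, lowest in rnh1∆rnh201∆ and highest in WT, with no overlap between any of the strains. The means were 335 ± 7.07 in rnh1∆rnh201∆ (SD, n = 2), 457 ± 37.9 in pRnhA and 613 ± 61.1 in WT (SD, n = 3 each). Against WT, srx1 fell in rnh1∆rnh201∆ by 0.87 on the log2(value + 1) scale (SE 0.10, 95% interval -1.10 to -0.63, limma adjusted p = 0.027), lower in 2 of 2 libraries than in each WT library. In pRnhA it fell by 0.42 on that scale (SE 0.093, 95% interval -0.64 to -0.21, limma adjusted p = 0.019), lower in 3 of 3 libraries. Between rnh1∆rnh201∆ and pRnhA the difference was -0.44 (95% interval -0.68 to -0.21), and it did not pass (limma adjusted p = 0.15). The neighbours in the order that passed the test were thus pRnhA and WT, not rnh1∆rnh201∆ and pRnhA. Their unadjusted limma p-values were close, 0.0017 for pRnhA against WT and 0.0025 for rnh1∆rnh201∆ against pRnhA. The adjustment is over all genes, of which 1306 passed in the first of these comparisons and 23 in the second. The authors' deposited table has log2 fold changes of -0.79 for rnh1∆rnh201∆, with an adjusted p printed as 0.00, and -0.40 for pRnhA, with an adjusted p of 0.01.

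The srx1 values showed the same steps among the libraries with each mating-type transcript. With mat1-Mc, srx1 had 330 normalized counts in rnh1∆rnh201∆, 500 and 440 in pRnhA and 560 and 680 in WT; with mat2-Pc it had 340 in rnh1∆rnh201∆, 430 in pRnhA and 600 in WT. Over the 5 mat1-Mc libraries alone the log2 difference from WT was -0.90 in rnh1∆rnh201∆ (limma adjusted p = 0.42) and -0.40 in pRnhA (limma adjusted p = 0.23), so the sizes were close to those over the 8 libraries and neither passed. The rnh1∆rnh201∆ call rests on few libraries. Without WT replicate 2, the highest of the WT libraries, the difference was -0.79 (limma adjusted p = 0.13) in rnh1∆rnh201∆ and -0.35 (limma adjusted p = 0.069) in pRnhA. It was also lost with either rnh1∆rnh201∆ library or with pRnhA replicate 1 or 2 left out, and the pRnhA call with pRnhA replicate 2 or 3 left out, while the 8 such fits gave -0.93 to -0.79 in rnh1∆rnh201∆ and -0.49 to -0.35 in pRnhA. With libraries scaled to the same total the pRnhA call was lost too (-0.31, limma adjusted p = 0.056), and the rnh1∆rnh201∆ call was kept (-0.81, limma adjusted p = 0.033). The rnh1∆rnh201∆ call was lost with no filter on low values, with no trend and with only rnh1∆rnh201∆ and WT in the fit.

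The RNA for peroxiredoxin, the protein that srx1's product repairs, showed no such steps. The peroxiredoxin gene, tpx1, had 18000 and 19000 normalized counts in rnh1∆rnh201∆, 21000, 20000 and 19000 in pRnhA, and 19000, 18000 and 16000 in WT. The ranges of all 3 strains overlapped. The log2 difference from WT was 0.07 in rnh1∆rnh201∆ (95% interval -0.19 to 0.33, limma adjusted p = 0.76) and 0.18 in pRnhA (95% interval -0.05 to 0.41, limma adjusted p = 0.23). The authors' deposited table differs here, with a log2 fold change of 0.20 and an adjusted p of 0.02 for tpx1 in pRnhA. With each library scaled to the same total, the pRnhA difference was 0.29 (limma adjusted p = 0.046), a scaling that moved the median of all genes in that comparison to 0.11.

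Thioredoxin reductase and thioredoxin pass electrons to Tpx1, and these data do not show which thioredoxin serves it. The thioredoxin reductase gene trr1 had 1900 and 2000 normalized counts in rnh1∆rnh201∆, 2100, 2100 and 2200 in pRnhA, and 2200, 2300 and 2100 in WT. Both rnh1∆rnh201∆ libraries were below every other library, and pRnhA overlapped WT. The log2 difference was -0.17 in rnh1∆rnh201∆ (SE 0.062, 95% interval -0.32 to -0.03, limma adjusted p = 0.16) and -0.04 in pRnhA (95% interval -0.17 to 0.08, limma adjusted p = 0.62). In the authors' deposited table, trr1 in rnh1∆rnh201∆ has an adjusted p of 0.06. The mitochondrial thioredoxin gene trx2 had 580 and 550 normalized counts in rnh1∆rnh201∆, 550, 530 and 600 in pRnhA, and 570, 550 and 500 in WT, and all strains overlapped. Its differences from WT were 0.07 (95% interval -0.13 to 0.26) in rnh1∆rnh201∆ and 0.05 (95% interval -0.12 to 0.23) in pRnhA, with limma adjusted p-values of 0.70 and 0.67. The thioredoxin gene trx1, from the lists below, differed by 0.12 in rnh1∆rnh201∆ (limma adjusted p = 0.50) and by 0.16 in pRnhA (limma adjusted p = 0.22).

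**Figure D2:**
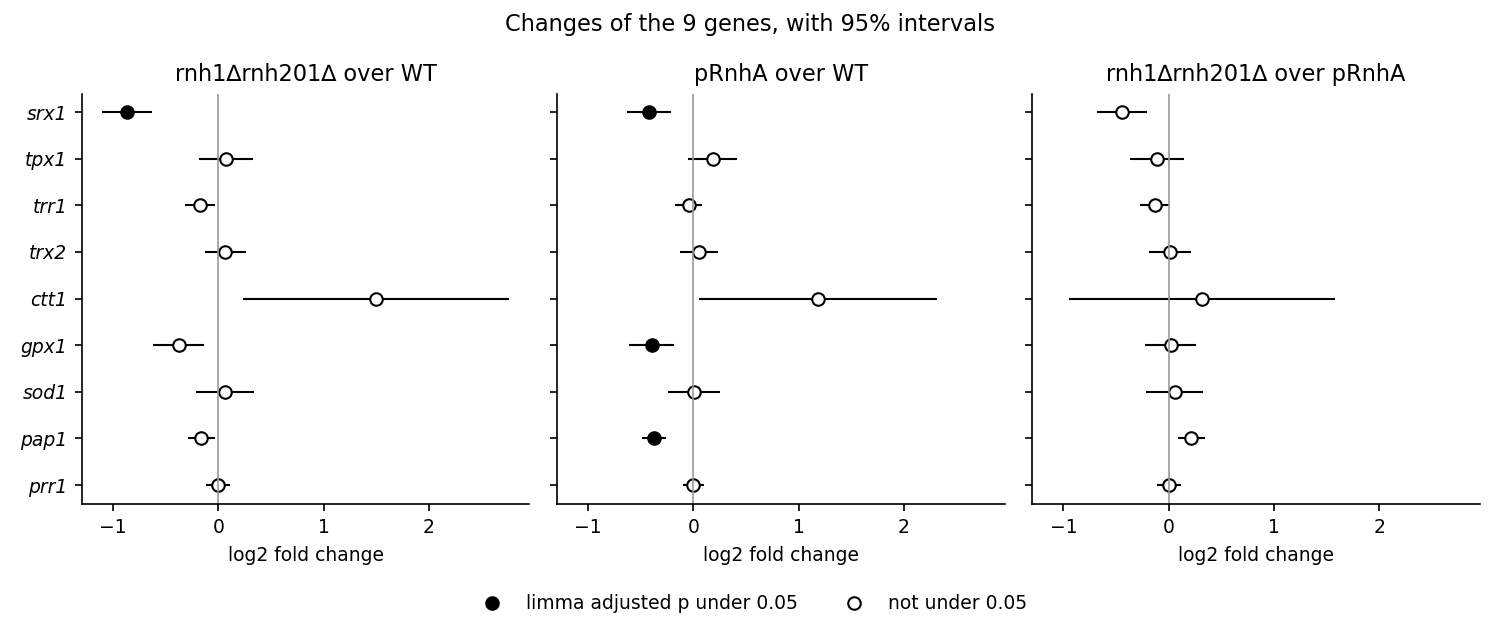
Log2 fold changes of the 9 genes (horizontal axis) in rnh1∆rnh201∆ over WT, pRnhA over WT and rnh1∆rnh201∆ over pRnhA, each with its 95% interval. Filled points have a limma adjusted p under 0.05: srx1 in rnh1∆rnh201∆, and srx1, gpx1 and pap1 in pRnhA. The interval of ctt1 is the widest of the 9 in each comparison.

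The RNA for catalase, the enzyme that splits hydrogen peroxide directly, had the widest spread of the 9 genes. The catalase gene ctt1 had 1100 and 860 normalized counts in rnh1∆rnh201∆, 710, 670 and 1000 in pRnhA, and 230, 200 and 880 in WT. WT replicates 1 and 2 were below every library of the other strains, while WT replicate 3 was within their range, so the groups overlapped. The means were 980 ± 170 in rnh1∆rnh201∆ (SD, n = 2), 793 ± 180 in pRnhA and 437 ± 384 in WT (SD, n = 3 each). The differences from WT were 1.50 in rnh1∆rnh201∆ (SE 0.55, 95% interval 0.23 to 2.76, limma adjusted p = 0.17) and 1.18 in pRnhA (SE 0.49, 95% interval 0.05 to 2.31, limma adjusted p = 0.13) on the log2(value + 1) scale, and neither passed. The authors' deposited table gives ctt1 log2 fold changes of 0.55 and 0.47 in these strains, with adjusted p-values of 0.16 and 0.18. These fold changes are smaller than the differences here, and how they were computed is not given in the sources used here.

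The ctt1 result turned on 1 library. Without WT replicate 3, ctt1 rose in rnh1∆rnh201∆ by 2.18 (limma adjusted p = 0.023) and in pRnhA by 1.86 (limma adjusted p = 0.0082). WT replicate 3 is the WT library with mat2-Pc. In each strain the mat2-Pc library had the highest ctt1 value, 1100 in rnh1∆rnh201∆, 1000 in pRnhA and 880 in WT, where ctt1 was 1.25 times WT in rnh1∆rnh201∆ and 1.14 times WT in pRnhA. Among mat1-Mc libraries ctt1 had 860 normalized counts in rnh1∆rnh201∆, 710 and 670 in pRnhA and 230 and 200 in WT, with a WT mean of 215 and a pRnhA mean of 690, so pRnhA was 3.21 times WT. Each strain has 1 mat2-Pc library, and whether the difference from WT depends on the mating-type transcript was not tested. Over the mat1-Mc libraries alone the log2 differences were 2.00 in rnh1∆rnh201∆ (limma adjusted p = 0.067) and 1.68 in pRnhA (limma adjusted p = 0.14). With the mating-type transcript as a term in the fit over 8 libraries, ctt1 passed in pRnhA (1.18, limma adjusted p = 0.038), and it also passed there with the replicate numbers as a block (1.18, limma adjusted p = 0.032). In rnh1∆rnh201∆ ctt1 did not pass with the term (1.33, limma adjusted p = 0.10) or with the block (1.93, limma adjusted p = 0.075). Replicate 3 is the mat2-Pc library in both pRnhA and WT, so for these strains the block and the term share that split. In rnh1∆rnh201∆ the mat2-Pc library is replicate 1, which the block sets beside mat1-Mc libraries of the other strains. The block and the term are therefore not the same adjustment there.

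Glutathione peroxidase, which reduces peroxides with the help of thiol donors, is encoded by gpx1. It had 1300 and 1200 normalized counts in rnh1∆rnh201∆, 1200, 1200 and 1300 in pRnhA, and 1400, 1800 and 1700 in WT. Both altered strains were below every WT library and overlapped each other. In pRnhA gpx1 fell by 0.40 (SE 0.095, 95% interval -0.61 to -0.18, limma adjusted p = 0.024), lower in 3 of 3 libraries. In rnh1∆rnh201∆ the difference was close in size, -0.38 (SE 0.11, 95% interval -0.62 to -0.14), and did not pass (limma adjusted p = 0.11). The direct difference, rnh1∆rnh201∆ minus pRnhA, was 0.02 (95% interval -0.22 to 0.26), and it did not pass (limma adjusted p = 0.95). The authors' deposited table prints an adjusted p of 0.00 for gpx1 in both strains. Without WT replicate 1, the lowest WT library, gpx1 also passed in rnh1∆rnh201∆ (-0.49, limma adjusted p = 0.0050). In pRnhA the call was lost with no filter on low values, with no trend and with libraries scaled to the same total (-0.29, limma adjusted p = 0.083). It was also lost in 5 of the 8 fits that left out a library (pRnhA replicate 1, 2 or 3, or WT replicate 2 or 3). The 8 fits gave -0.50 to -0.32. Over the mat1-Mc libraries alone the call was lost too, with a difference of -0.40.

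The Cu,Zn superoxide dismutase gene sod1 had 1800 and 1800 normalized counts in rnh1∆rnh201∆, 1700, 1600 and 1900 in pRnhA, and 2000, 1700 and 1500 in WT. The WT libraries spanned the values of both other strains. The log2 difference was 0.06 in rnh1∆rnh201∆ (95% interval -0.21 to 0.34, limma adjusted p = 0.79) and 0.01 in pRnhA (95% interval -0.24 to 0.25, limma adjusted p = 0.98).

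Among the regulators, pap1 fell in pRnhA. This gene for the AP-1-like transcription factor that enters the nucleus when oxidised had 1700 and 1700 normalized counts in rnh1∆rnh201∆, 1400, 1500 and 1500 in pRnhA, and 1900 in each WT library. The 3 strains did not overlap, with pRnhA lowest, rnh1∆rnh201∆ between and WT highest, an order that differs from that of srx1. In pRnhA pap1 fell by 0.37 (SE 0.050, 95% interval -0.49 to -0.26, limma adjusted p = 0.0049). After rounding, its values do not vary within WT or within rnh1∆rnh201∆, so the SE draws on the spread of other genes. The call held in each of the 8 fits without 1 library (-0.39 to -0.34) and with libraries scaled to the same total (-0.26), and was lost over the mat1-Mc libraries alone (-0.39, limma adjusted p = 0.14). In rnh1∆rnh201∆ the difference was -0.16 (SE 0.056, 95% interval -0.29 to -0.03) and did not pass (limma adjusted p = 0.15), and in the authors' deposited table the adjusted p of pap1 is printed as 0.05 there. The direct difference, rnh1∆rnh201∆ minus pRnhA, was 0.21 (95% interval 0.09 to 0.34, limma adjusted p = 0.17).

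The partner of Pap1, prr1, also needed for expression of the mating regulator ste11, had 1500 normalized counts in all 8 libraries. Differences smaller than the rounding cannot be seen in such values. The limma interval of its log2 difference from WT was -0.11 to 0.11 in rnh1∆rnh201∆ and -0.10 to 0.10 in pRnhA, and it draws on the spread of other genes.

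Of the 9 genes, 4 had rnh1∆rnh201∆ libraries that did not overlap WT (srx1, trr1, gpx1 and pap1, all lower), and 28.9% of all genes did not overlap in that comparison. In pRnhA 3 of the 9 did not overlap WT (srx1, gpx1 and pap1, all lower), where 33.7% of all genes did not. Between rnh1∆rnh201∆ and pRnhA 3 did not overlap, pap1 with rnh1∆rnh201∆ higher and srx1 and trr1 with it lower, against 32.0% of all genes. In the last 2 comparisons, 3 of 9 is close to the share of all genes.

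Other genes of the pathway were taken from 7 lists of 57 genes in all, of which each was tested. In rnh1∆rnh201∆ 0 of the 57 passed limma's test, and 16 had an unadjusted p under 0.05, with the share of all genes not counted. The authors' deposited table has 11 with an adjusted p under 0.05, against 15.4% of all genes with an adjusted p there. In pRnhA 14 fell and 1 rose, with 42 not past the threshold, and the authors' deposited table has 24, against 32.4% of all such genes. The median log2 difference of the 57 was -0.09 in rnh1∆rnh201∆ and -0.11 in pRnhA, next to 0.01 and 0.00 over all genes. In pRnhA the 15 of 57 stand beside the 20.2% of all genes. With libraries scaled to the same total 4 of the 15 still passed, and over the mat1-Mc libraries alone 0 did, with no sign changed in either fit. Without 1 library, 3 of the 15 passed without pRnhA replicate 2, 3 without WT replicate 2, 5 without pRnhA replicate 1 and 8 without WT replicate 3.

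The Sty1 pathway list, the stress kinase cascade and its targets, had 8 of its 18 genes fall and 1 rise in pRnhA, where 11.4% of all genes fell and 8.88% rose. The gene of the cascade's transcription factor, atf1, fell by 0.49 (SE 0.066, limma adjusted p = 0.0050), with 3700 and 3900 normalized counts in rnh1∆rnh201∆, 3500, 3300 and 3400 in pRnhA, and 4400, 5000 and 4900 in WT. All pRnhA and rnh1∆rnh201∆ libraries were below all WT libraries, but in rnh1∆rnh201∆ the difference of -0.33 did not pass (limma adjusted p = 0.074). The kinase gene srk1, a target of Sty1, fell by 0.56 in pRnhA (limma adjusted p = 0.026), with 1100 and 1100 normalized counts in rnh1∆rnh201∆, 1100, 1100 and 1200 in pRnhA and 1300, 1900 and 1900 in WT. The other genes that fell in pRnhA were the phosphorelay genes mak1, mak2 and mpr1, the kinase gene win1, and the RNA-binding protein genes cip1 and cip2, by 0.21, 0.26, 0.33, 0.30, 0.43 and 0.29 in that order. The kinase gene cmk2 rose by 0.30 in pRnhA (limma adjusted p = 0.013), with 700 and 690 normalized counts in rnh1∆rnh201∆, 720, 760 and 740 in pRnhA and 630, 590 and 580 in WT. The gene of the kinase itself, sty1, had a difference of -0.18 in pRnhA that did not pass (limma adjusted p = 0.089). In the 8 fits without 1 library, srk1 passed in 1 and mpr1 in 1, while atf1 and cip1 passed in 8. With the replicate block, mak1 no longer passed in pRnhA (limma adjusted p = 0.068).

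The core stress response list, genes induced by many stresses, had 4 of 13 fall in pRnhA, against 11.4% of all genes. These were atf1, the trehalose genes tps1 (synthesis) and ntp1 (breakdown), and gpd1, a glycerol synthesis gene. In pRnhA ntp1 fell by 0.47 (limma adjusted p = 0.0061), tps1 by 0.37 (limma adjusted p = 0.033) and gpd1 by 0.26 (limma adjusted p = 0.049, and 0.084 with the replicate block). Of the 8 fits without 1 library, tps1 and gpd1 each passed in 1 and ntp1 passed in 8. The other 9 did not pass in either strain and ranged between -0.70 and 1.32 in rnh1∆rnh201∆ and between -0.48 and 0.64 in pRnhA. The highest in both was hsp16, with 1100 and 800 normalized counts in rnh1∆rnh201∆, 630, 660 and 480 in pRnhA, and 490, 490 and 220 in WT. Its limma adjusted p in rnh1∆rnh201∆ was 0.091, and the authors' deposited adjusted p there is printed as 0.00. With an adjusted p under 0.05, their table has 1 of this list higher in rnh1∆rnh201∆, hsp16, and 3 lower.

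The shares in the next lists stand beside the same 11.4%. Among thioredoxin and peroxiredoxin genes 1 of 6 fell in pRnhA, bcp1, a peroxiredoxin of the bacterioferritin comigratory type. It had 520 and 510 normalized counts in rnh1∆rnh201∆, 540, 490 and 610 in pRnhA and 660, 710 and 720 in WT. The libraries of both altered strains were below those of WT, with a log2 difference of -0.43 in rnh1∆rnh201∆ (limma adjusted p = 0.070) and a fall of 0.35 in pRnhA (limma adjusted p = 0.026). Of 12 glutathione and glutaredoxin genes 1 fell in pRnhA, the glutathione S-transferase gene gst3, by 0.48 (limma adjusted p = 0.021). The Pap1 target list had 2 of 7 fall in pRnhA, the same gst3 and the drug exporter gene pmd1, which fell by 0.29 (limma adjusted p = 0.021). Neither of the 2 superoxide genes, ccs1 and the manganese superoxide dismutase gene SPAC1486.01, and none of the 4 Pap1 transport and cofactor genes passed limma's test in pRnhA; at an unadjusted p under 0.05 there were 0 and 1, while the authors' deposited table has 0 and 2 with an adjusted p under 0.05.

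The genes whose pattern was most like srx1 over the 8 libraries were found by the root mean square difference of log2(value + 1), each gene centred on its own mean, over the 4531 genes that averaged 200 or more. They were hhf3 (0.13), gst3 (0.16), hta2 (0.16), hhf1 (0.16) and SPAC1782.12c (0.16), where the median gene was at 0.37. Of these, hhf3 and hhf1 encode histone H4 and hta2 encodes a histone H2A. The gst3 gene had 390 and 340 normalized counts in rnh1∆rnh201∆, 420, 380 and 440 in pRnhA, and 500, 600 and 640 in WT. The hhf3 gene had 470 and 440 in rnh1∆rnh201∆, 630, 560 and 620 in pRnhA, and 600, 800 and 780 in WT. As with srx1, the rnh1∆rnh201∆ libraries of both were below all WT libraries, while for hhf3 pRnhA overlapped WT. For gst3 rnh1∆rnh201∆ overlapped pRnhA. For hta2, hhf1 and SPAC1782.12c the strains did not overlap and lay in the same order as for srx1. The hta2 gene had 1800 and 1800 normalized counts in rnh1∆rnh201∆, 2100, 1900 and 2100 in pRnhA, and 2500, 2700 and 2500 in WT. Like srx1 it fell in rnh1∆rnh201∆, by 0.51 (limma adjusted p = 0.045), and in pRnhA, by 0.34 (limma adjusted p = 0.0105). Histone H4 is encoded by near-identical gene copies, so the split of reads between hhf1 and hhf3 is uncertain.

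For ctt1, looked up after its values had been seen, the nearest gene was sdh2 at 0.30, then sdh3 at 0.48 and sdh4 at 0.50, all genes of succinate dehydrogenase in the mitochondrial respiratory chain, with the median gene at 0.91. The sdh2 gene had 1400 and 1400 normalized counts in rnh1∆rnh201∆, 1000, 990 and 1400 in pRnhA, and 560, 410 and 1200 in WT. As with ctt1, WT replicates 1 and 2 were the lowest libraries and WT replicate 3 was within the range of the other strains. This likeness follows from how the gene was picked.

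**Figure D3:**
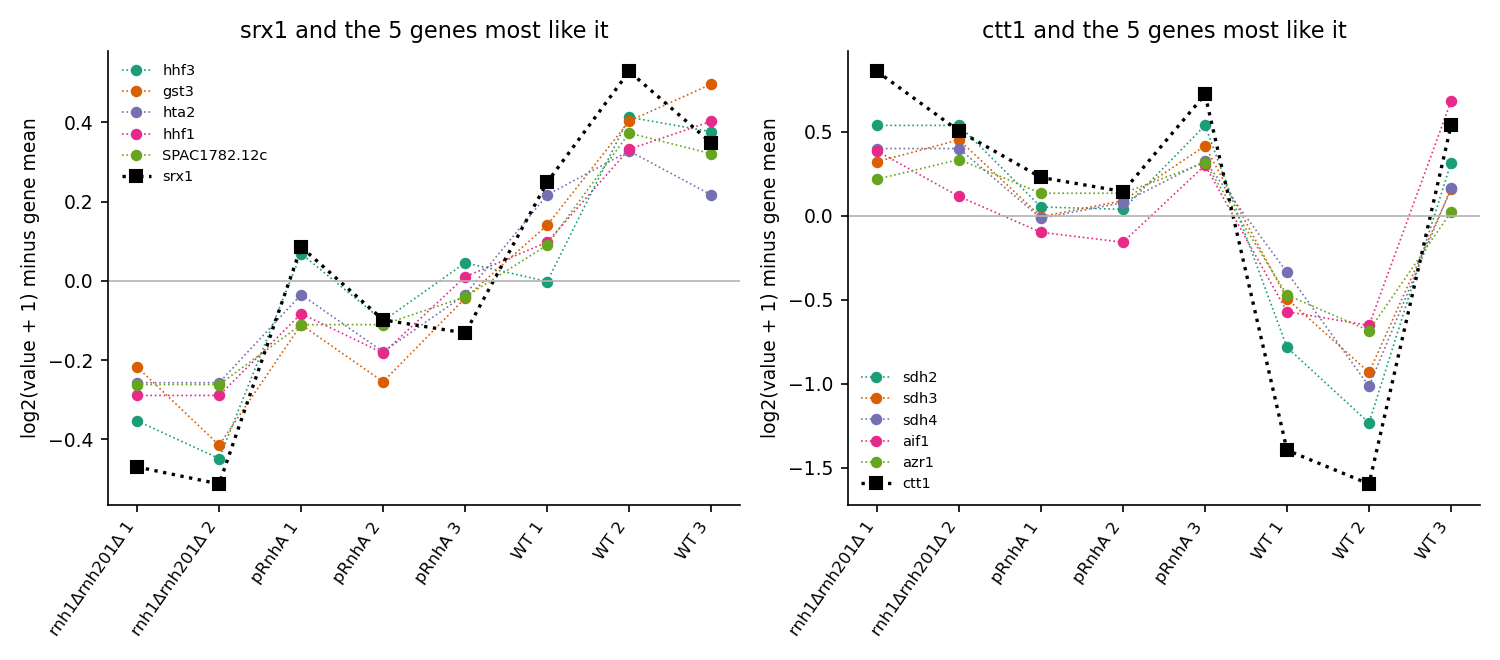
Log2(value + 1) minus the gene's mean over the 8 libraries (vertical axis) for srx1 and ctt1 (squares) and the 5 genes most like each (circles), by library with rnh1∆rnh201∆ left, pRnhA in the middle and WT right. Dotted lines only join the points of a gene, since replicates have no order. WT replicates 1 and 2 of ctt1 lie below all its other libraries.

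Genes that overlap the 9 could share reads with them, because whether reads were counted by strand is not given in the sources used here. In the gene table of the assembly ASM294v3, used for neighbours only, srx1 overlaps mph1, a spindle checkpoint kinase gene, and the noncoding RNA gene SPNCRNA.1350. Values of mph1 were 1000 and 930 normalized counts in rnh1∆rnh201∆, 850, 880 and 870 in pRnhA, and 970, 1000 and 1000 in WT. It fell by 0.19 in pRnhA (limma adjusted p = 0.037) and differed by -0.04 in rnh1∆rnh201∆, where the srx1 difference was largest. SPNCRNA.1350 had 49 and 43 normalized counts in rnh1∆rnh201∆, 42, 49 and 36 in pRnhA, and 58, 68 and 71 in WT. It fell by 0.63 in pRnhA (limma adjusted p = 0.036), and its difference of -0.50 in rnh1∆rnh201∆ did not pass (limma adjusted p = 0.18), so its libraries too were below WT in both strains. The noncoding RNA SPNCRNA.1259, which overlaps tpx1, rose by 1.08 in pRnhA (limma adjusted p = 0.026), with 25 and 14 normalized counts in rnh1∆rnh201∆, 28, 25 and 26 in pRnhA and 10, 12 and 14 in WT. Of the other overlapping genes in the table, gem7 at gpx1, srb11 at trx2 and SPNCRNA.1258 at tpx1 did not pass in either strain, nor did the antisense transcript of trr1, trr1-antisense-1. Among the genes next to one of the 9 without overlap, 9 were tested. In rnh1∆rnh201∆ 0 passed limma's test, and 4 had an adjusted p under 0.05 in the authors' deposited table (15.4% of all genes there). At an unadjusted p under 0.05 there were 6, with the share of all genes not counted. In pRnhA 4 passed limma's test (20.2% of all genes). These were SPCC576.02 beside tpx1, which fell by 0.70 (limma adjusted p = 0.036), and eng1, an endoglucanase gene beside sod1, which fell by 0.51 (limma adjusted p = 0.049). The ribosome biogenesis gene nop14 beside trr1 rose by 0.56 (limma adjusted p = 0.018), and the translation factor gene tif225 beside prr1 rose by 0.24 (limma adjusted p = 0.034), with trr1 and prr1 themselves not past the threshold. How shared reads bear on srx1, gpx1 and tpx1 was not tested.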

How the data were processed

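RNA was measured in 8 libraries, of the 29 samples in the series; the 18 DRIPc-seq samples and the 3 of small RNA were not analysed here. Hot phenol extraction of total RNA, a directional kit and single-end reads of 50 bases are given per the labels' protocols. TopHat2 2.0.5, DESeq2 and the builds ASM294v2 and hg19 are named in the submitters' processing notes, with no role given. The counting tool, annotation and use of strand are not given in the sources used here. The authors deposited normalized counts, a score rather than raw counts since no value has more than 2 significant digits. They also deposited log2 fold changes and adjusted p-values, both with 2 decimals; the header names no reference strain, and the value of pap1 in rnh1∆rnh201∆ (-0.18) has the sign of its difference from WT (-0.16), not from pRnhA (0.21).

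The values were tested with limma 3.58.1 (R 4.3.3), with a mean-variance trend, on log2(value + 1) for 6456 genes (those averaging 1 or more), the 8 libraries in one fit of 3 strains with 5 residual degrees of freedom, two-sided, with Benjamini-Hochberg adjustment over all genes and a threshold of 0.05. The scale understates changes of low genes. The fit was checked on simulated tables. No depth is known, so no counting interval is given. The 9 genes, the lists and the mating-type check were chosen with earlier results of these data known. Some genes are in more than 1 list. The genes named are the 9, listed genes past the threshold in a comparison with WT, the 5 most like srx1, overlapping or neighbouring genes, rnh1 and rnh201. The genes trx1, sty1, hsp16, ccs1, SPAC1486.01 and those like ctt1 were chosen after their values were seen. The main fit has no replicate block, and the block was used only as an alternative. Same-numbered WT and pRnhA libraries deviated together over the 5342 genes averaging 50 or more (correlations 0.289, 0.286 and 0.547). However, WT replicate 1 with pRnhA replicate 2 (0.279) and WT replicate 2 with pRnhA replicate 1 (0.303) correlated about as well. Same-numbered rnh1∆rnh201∆ and WT libraries had -0.119 and 0.299. Between libraries of different strains, each correlation was positive where they shared the mating-type transcript and negative where they did not. These correlations therefore cannot tell replicate pairs from the mating-type split. The alternatives changed the pseudocount, the filter, the scaling, the trend, the libraries in the fit, the replicate block and a term for the mating-type transcript.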

Additional observations from a re-analysis of the deposited data

Results flagged for a closer look

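Both deleted genes differed between the altered strains, a difference tested directly. On the log2(value + 1) scale, rnh1∆rnh201∆ minus pRnhA was -3.37 for rnh1 and -5.42 for rnh201, and both genes were lower in 2 of 2 rnh1∆rnh201∆ libraries than in each pRnhA library. None of the 9 peroxide defence genes passed limma's test of that difference, with 2 at an unadjusted p under 0.05. Groups of 2 and 3 libraries are too small for a test of single outlying samples.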

How the results depend on the processing

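No difference of the 9 genes that passed the test changed sign under an alternative. The count of the 9 past the threshold in rnh1∆rnh201∆ against WT, 1, was 0 with no filter on low values, 0 with no trend, 0 with only the libraries of the strains compared and 0 over the mat1-Mc libraries, and 0 to 2 without 1 library (2 without WT replicate 1 or 3, 1 without pRnhA replicate 3). In pRnhA against WT the count, 3, was 2 with libraries scaled to the same total (tpx1 and pap1), 2 with no filter and 2 with no trend (srx1 and pap1 in both), 0 over the mat1-Mc libraries and 1 to 3 without 1 library (1, pap1, without WT replicate 2 or pRnhA replicate 2 or 3). With the replicate block 4 of the 9 passed in pRnhA, ctt1 added, and 1 in rnh1∆rnh201∆; the block changed no other call of the 9. Over all genes, the rnh1∆rnh201∆ count of 19 was 213 with libraries scaled to the same total, 5 with no trend, 4 with only the 2 strains compared and 55 with a pseudocount of 5. It was 3 to 1264 without 1 library: 3, 4 and 10 without pRnhA replicates 1, 2 and 3, 47 and 5 without rnh1∆rnh201∆ replicates 1 and 2, and 1264, 4 and 34 without WT replicates 1, 2 and 3. The pRnhA count of 1306 was 858 with no trend and 0 over the mat1-Mc libraries. It was 212 to 2172 without 1 library: 408, 212 and 634 without pRnhA replicates 1, 2 and 3, and 2172, 395 and 780 without WT replicates 1, 2 and 3. Between the altered strains the count of 23 was 35 with no filter, 70 with only those strains and 5 to 93 without 1 library. The replicate block gave 22, 1287 and 20 in these comparisons. Scaling to the same total raised the share of higher calls to 77.1% in pRnhA, against 43.9%, and to 79.3% in rnh1∆rnh201∆, against 26.3%. The causes were not tested. Fits that leave 1 rnh1∆rnh201∆ library assume that it varies like the other strains. Unknown depth and rounding limit what can be seen in changes of a few percent.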
